A study of Saccharomyces cerevisiae with 36 samples.

Results

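Capped RNA ends that were listed in dcp2-7 cells and not in wild-type cells, and that lay away from annotated genes, made up 1151 of the 10183 capped positions of the dcp2-7 list. A position was taken when the wild-type list held none within 50 nt on the same chromosome and strand, and when it was neither inside an annotated gene nor within 200 nt upstream of one on the same strand. These positions are called new capped ends here. Both lists were used to choose them, so their number is a description and carries no test. Of all 3158 dcp2-7 positions outside genes, the other 2007 had a wild-type position within 50 nt and are called shared ends; 1678 of these stood at the very same nucleotide in both lists. In the other direction, 426 of the 2365 wild-type positions outside genes had no dcp2-7 position within 50 nt.

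The positions came from CAGE, which reads the first nucleotides of RNAs that carry a 5' cap. There is 1 list for the 2 replicate cultures of each genotype, with no heights, and the label of the second dcp2-7 culture carries the barcode of the first as well as its own. What each culture gave to the dcp2-7 list is therefore unknown, and neither the strength of an end nor its presence in each replicate could be checked. The series holds 36 samples of the budding yeast Saccharomyces cerevisiae, 4 of them CAGE samples and 32 of them stranded RNA-seq libraries. The RNA-seq libraries form 12 rRNA-depleted groups and 4 groups treated with Terminator, each of 2 libraries.

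The CAGE groups were dcp2-7 (strain YAM2283) and wild type (strain YAM1), both of S288C background, grown in YPD and then kept at 37 °C for 2 h. The RNA-seq groups dcp2_37C and WT_37C used the same strains at 37 °C, with no time on their labels. All other RNA-seq labels give no temperature. The upf1 group (YAM202, upf1D, S288C) was set against WT_UPF1 (YAM1). Cells that lack XRN1 were set against wild type in 4 backgrounds: xrn1_S288C (YAM6) against WT_S288C (YAM1), xrn1_W303 (YAM97) against WT_W303 (YAM92), the haploid xrn1_SK1 (YAM2087) against WT_SK1 (YAM1977), and the diploid xrn1_SK1_2n (YAM2068, xrn1D/xrn1D) against WT_SK1_2n (YAM2067). RNA of dcp2_37C, WT_37C, xrn1_S288C and WT_S288C was also digested with Terminator, an exonuclease that degrades RNA with a 5' monophosphate. Each genotype was given by a single strain per background, so the deletion and other differences of that strain cannot be told apart.

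In the cytoplasm of yeast, Dcp2 is the catalytic subunit of the enzyme that removes the cap, and Xrn1 then digests the uncapped RNA from its 5' end. Upf1 is the helicase of nonsense-mediated decay, which sends RNAs with an early stop codon to decapping. Yeast transcribes many long non-coding RNAs (lncRNAs), named by how they were found: Xrn1-sensitive unstable transcripts (XUTs) accumulate without Xrn1, cryptic unstable transcripts (CUTs) are degraded in the nucleus by the exosome, and stable unannotated transcripts (SUTs) are seen in wild-type cells. dcp2-7 is a temperature-sensitive allele, which is why cells are moved to 37 °C.

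The sequences around 8 new capped ends, each within 50 nt of the annotated start of a lncRNA, show what such an end looks like on the DNA. The first 4 belong to lncRNAs with high levels in dcp2_37C cells, the next 3 to lncRNAs among the largest rises in upf1 cells, and SUT019 to the largest mean rise over the 4 xrn1 comparisons. Each runs from 100 bases upstream of the start to 20 bases into the RNA, 5' to 3' on the strand that is transcribed. Capitals mark the last base before the start and the first base of the RNA, and any TATAAA or TATATA upstream. The deposited end stands at the annotated start for the first 5, and 46 nt inside SUT777, 20 nt upstream of SUT692 and 13 nt upstream of SUT019.
XUT1386: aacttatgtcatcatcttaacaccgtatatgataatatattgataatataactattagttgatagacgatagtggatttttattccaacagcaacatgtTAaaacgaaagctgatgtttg
XUT0282: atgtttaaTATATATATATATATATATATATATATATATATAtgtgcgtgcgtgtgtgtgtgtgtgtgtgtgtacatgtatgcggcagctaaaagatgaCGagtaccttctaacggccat
SUT674: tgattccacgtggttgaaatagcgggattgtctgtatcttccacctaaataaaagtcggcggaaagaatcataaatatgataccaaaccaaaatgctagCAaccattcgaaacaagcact
XUT0105: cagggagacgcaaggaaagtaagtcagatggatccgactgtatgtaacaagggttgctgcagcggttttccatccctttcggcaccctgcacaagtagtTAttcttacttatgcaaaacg
XUT0788: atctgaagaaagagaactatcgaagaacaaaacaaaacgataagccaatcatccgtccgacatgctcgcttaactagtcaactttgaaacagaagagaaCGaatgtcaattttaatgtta
SUT777: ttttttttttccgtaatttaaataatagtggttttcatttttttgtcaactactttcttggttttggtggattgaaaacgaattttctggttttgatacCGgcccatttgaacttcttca
SUT692: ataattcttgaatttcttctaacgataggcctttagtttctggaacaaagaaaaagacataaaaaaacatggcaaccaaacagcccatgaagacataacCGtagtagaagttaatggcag
SUT019: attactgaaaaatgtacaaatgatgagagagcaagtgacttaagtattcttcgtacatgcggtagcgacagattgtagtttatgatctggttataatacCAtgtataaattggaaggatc
They were read from the R64 reference at chr10:472433-472552 (minus strand), chr5:284378-284497 (plus), chr11:342095-342214 (minus), chr3:157693-157812 (plus), chr15:3424-3543 (plus), chr15:448298-448417 (minus), chr12:291692-291811 (minus) and chr2:532405-532524 (plus). A start at a purine after a pyrimidine is written TA, CG or CA in all 8. An A stands 8 bases upstream of the start in 7 of them, and T stands there in SUT777. Only XUT0282 holds TATAAA or TATATA in these 100 bases, within a long run of TA repeats.

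Most RNA polymerase II starts in yeast fall on a purine that follows a pyrimidine, and often have an A 8 bases upstream. On the plus strand, 532 of 556 new capped ends had a pyrimidine at -1 and a purine at the deposited position, 95.7% (95% Wilson interval 93.7 to 97.1%). On the minus strand only 2 of 595 deposited positions did, 0.336%, but 586 did when the position was read 1 nt further downstream, 98.5%. The deposited minus-strand positions therefore stand 1 nt upstream of the base that shows this pattern, and the sequences printed above use the base 1 nt downstream on that strand. With that reading, 97.1% of the new capped ends had the pattern on both strands together, against 97.1% of the shared ends, 94.9% of the dcp2-7 positions at genes and 23.2% of all positions of the genome. Read as deposited on both strands, the share of new capped ends was 46.4%. An A at -8 was found at 71.5% of them (55.4% as deposited), against 71.8% of shared ends, 71.9% of positions at genes and 30.9% of the genome. New capped ends thus had these start-site bases about as often as the shared ends did. By the bases at -1 and +1, 38.1% were CA, 29.6% TA, 18.8% TG and 10.7% CG, against 40.9%, 30.0%, 15.8% and 10.3% of shared ends.

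**Figure D1:**
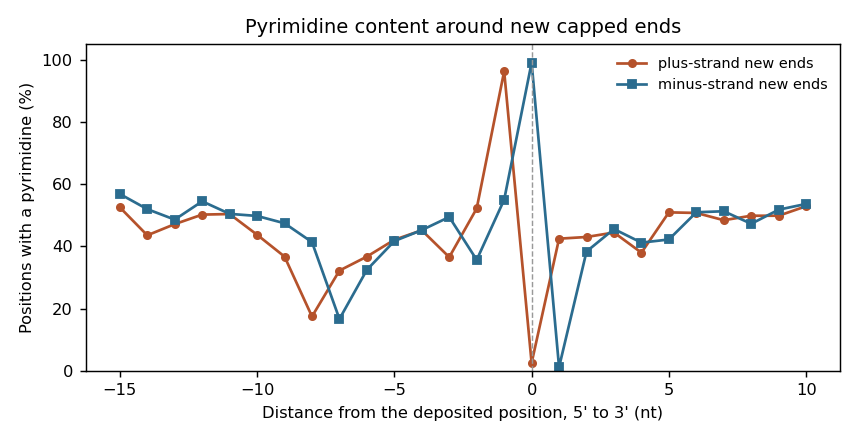
Share of new capped ends with a pyrimidine (percent, y axis) at each distance in nt from the deposited position (x axis, 5' to 3'), for the 556 plus-strand ends (circles) and the 595 minus-strand ends (squares). The peak of pyrimidine stands at -1 on the plus strand and at 0 on the minus strand, and the drop in pyrimidine that follows it is shifted by the same 1 nt.

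A TATA element, the site bound by TATA-binding protein at a part of yeast promoters, was less frequent upstream of new capped ends. TATAAA or TATATA on the same strand, from 150 to 20 bases upstream, was found at 248 of 1151 new capped ends, 21.5% (95% Wilson interval 19.27 to 24.01%), against 33.0% (30.9 to 35.1%) of 2002 shared ends and 29.2% (28.2 to 30.3%) of 7019 positions at genes. Of all windows of the same length in the genome, 13.5% held one. The intervals do not overlap, but they cover counting error only, ends of a cluster share their sequence, and the difference was not tested. With 1 end per cluster the share was 21.2%. The median GC content of the same upstream window was 35.9% for new capped ends (36.6% with the minus strand read 1 nt downstream) and 35.1% for shared ends.

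Short RNAs such as CUTs are terminated by Nrd1 and Nab3, which bind GTAG and TCTT in the RNA. GTAG occurred in the first 200 bases of 45.5% of new capped ends (42.7 to 48.4%), against 39.9% (37.8 to 42.1%) of shared ends, 34.9% of positions at genes and 40.3% of all windows of 200 bases. TCTT occurred in 73.3% of new capped ends, against 74.5% of shared ends, 58.3% of positions at genes and 73.1% of all windows. The shares of TCTT outside genes were thus close to that of the genome. A match of these letters is a description of the sequence and says nothing about binding.

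New capped ends lay more often opposite a gene than shared ends did. On the other strand of a gene body stood 357 of 1151 new capped ends, 31.0% (28.4 to 33.7%), against 422 of 2007 shared ends, 21.0% (19.3 to 22.9%). A further 375 new capped ends, 32.6%, lay within 500 nt upstream of the start of a gene on the other strand, as transcripts that run away from a promoter do, against 36.6% of shared ends. The median distance to that start was 262 nt for new and 269 nt for shared ends. Downstream of the end of a gene on the same strand, within 500 nt, lay 10.7% of new and 12.5% of shared ends, and 25.5% and 27.7% had none of these neighbours. Small stable RNAs (tRNA, snoRNA, snRNA and other ncRNA) accounted for 2 new ends, 0.174%, against 43 shared ends, 2.14%. None of these differences was tested.

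**Figure D2:**
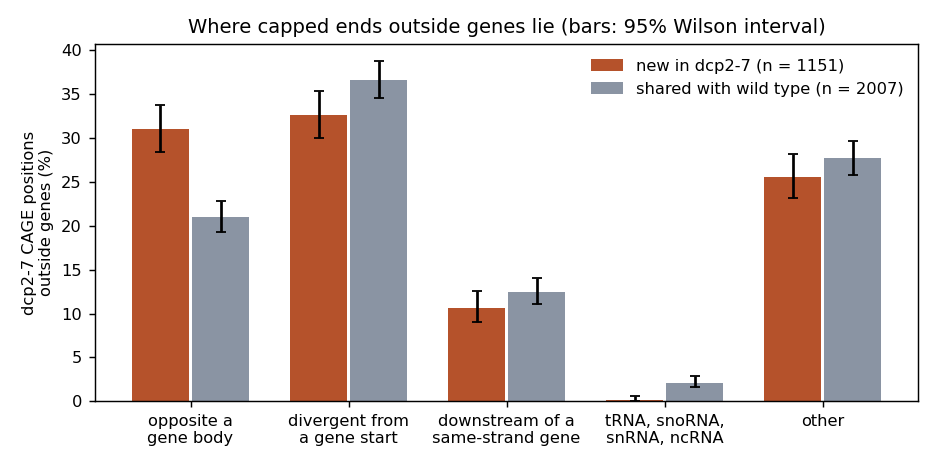
Share (percent, y axis) of the 1151 new capped ends and of the 2007 shared ends in each class of place (x axis), with 95% Wilson intervals as error bars. New capped ends stand above shared ends for ends opposite a gene body, 31.0% against 21.0%, and below them for small stable RNAs, 0.174% against 2.14%.

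Within the genes they lay opposite, new capped ends were spread further from the gene's 3' end. The median distance from the 3' end of the gene was 428 nt for new ends (quartiles 86.0 and 917) and 94.5 nt for shared ends (quartiles 31.0 and 510). The 25% of the gene nearest its 3' end held 41.2% of the 357 new ends and 63.0% of the 422 shared ends, while the 25% nearest its 5' end held 20.7% of new and 13.7% of shared ends.

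The 1151 positions formed 966 clusters when ends closer than 51 nt were chained, of which 799 held 1 position, 149 held 2 and 18 held 3. Shared ends formed 1469 clusters, of which 980 held 1 position, 442 held 2, 45 held 3 and 2 held 4. The narrowest clusters of 3 new ends were chr7:705290-705299 on the plus strand, chr7:693138-693148 on the minus strand, chr1:188952-188963 on the minus strand, and chr4:446103-446114 on the minus strand, opposite MCD1, which encodes a cohesin subunit. The next, chr11:67657-67669 and chr4:1445758-1445770, both on the plus strand, lie at SUT221 and XUT0567 and at SUT077 and XUT0244. New ends were found on all 16 nuclear chromosomes, from 6.77 per 100 kb on chromosome 12 to 14.8 per 100 kb on chromosome 1. A single new end was on the mitochondrial genome and none of the 11 dcp2-7 positions on the 2-micron plasmid was new.

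Most new capped ends were far from any wild-type position: the median distance on the same strand was 1399 nt, and 974 were over 500 nt away, 150 were 101 to 500 nt away and 27 were 51 to 100 nt away. The closest to the limit of 50 nt were at 52, 52 and 53 nt, and the closest ends left out for that reason were at 50, 49 and 47 nt. At the limit of 200 nt upstream of a gene, the nearest ends kept were at 201, 207 and 208 nt, and the nearest left out were at 200, 199 and 195 nt. Of the new ends, 99 lay 201 to 500 nt upstream of a gene on the same strand, so that a long leader of that gene could start there. By R64, 13 new ends were inside a protein-coding gene that the deposited table does not hold, among 235 such genes, and 18 were inside or within 200 nt upstream of one. Another 18 lay in a long terminal repeat or mobile element and 12 in an origin of replication. The other genes of R64 nearly all have the deposited coordinates, which were used to choose the ends. Only the 235 absent genes could therefore add such cases.

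Many new capped ends met an annotated lncRNA: 545 of 1151 new ends, 47.4% (44.5 to 50.2%), were inside or within 50 nt of a CUT, SUT or XUT on the same strand, as were 47.1% of shared ends, and 606 new ends were in none. The annotated 5' end of 349 lncRNAs lay within 50 nt of 358 new ends, and these 349 are called linked lncRNAs. They were 241 of 1798 XUTs (13.4%), 75 of 847 SUTs (8.85%) and 33 of 925 CUTs (3.57%). Of the 241 linked XUTs, 230 start exactly at a new end, whereas 1 SUT and no CUT do, and the median distance was 12 nt for SUTs and 17 nt for CUTs. The annotated starts of XUTs and the dcp2-7 list are therefore not independent of each other. Of the 349, 1 also started at a shared end. A further 742 lncRNAs started at shared ends only, 2478 started at no dcp2-7 position, and 1 started only at a dcp2-7 position of a gene. Linked lncRNAs had a median length of 648 nt, against 518 nt for the others. A gene lay opposite 202 of them (57.9%, against 60.4% of all lncRNAs) and 174 overlapped another annotated lncRNA on their own strand, with which they share reads.

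RNA levels are given as density, the authors' signal of reads per nucleotide times 1 factor per library that makes the snoRNA sum equal in all libraries. The libraries held 11021562 to 68466587 reads on annotated features, and the log2 values of replicates correlated with Pearson's r of 0.987 to 0.997 over features. All 349 linked lncRNAs passed the filter on low values, which asks for 2 libraries of any group. Separate samples were deposited as replicates, and p-values measure the spread between them. In bulk RNA, fewer cells with a transcript and less of it per cell cannot be told apart. XRN1 was at 0.00309 and 0.00399 in xrn1_S288C cells, against 1.62 and 1.57 in WT_S288C cells, as the label says.

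The levels of linked lncRNAs in dcp2_37C and WT_37C are a description, since the same pair of genotypes chose them. The counts of limma calls given for this pair describe the set in the same way, and nothing is read from them. Their median density was 0.0921 and 0.0797 in the 2 dcp2_37C libraries, against 0.0221 and 0.0284 in the 2 WT_37C libraries. Both dcp2_37C libraries stood above both WT_37C libraries for 328 of 349 (79% of all features tested and 76.2% of all lncRNAs did so). At least 10 reads were counted in WT_37C for 343 and 346 of the 349, although the wild-type list held no position at the new ends. Such reads need not come from RNA that starts at the new end. Of the 349, 174 overlap another annotated lncRNA on their strand. The median log2 difference was 1.51, against 0.71 for genes. By limma's adjusted p under 0.05, 316 were higher and 2 lower (72.4% and 4.12% of all features, 66.9% and 5.53% of all lncRNAs). With libraries scaled to equal gene medians, 239 were higher and 21 lower (28.7% and 33.7% of all features, 39.8% and 20.1% of all lncRNAs). The 2 lower ones were SUT557 and CUT701, named because they are the exceptions. CUT701, which shares its strand and reads with XUT1417, had 0.0333 and 0.0311 in dcp2_37C, against 0.0544 and 0.0580 in WT_37C.

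**Figure D3:**
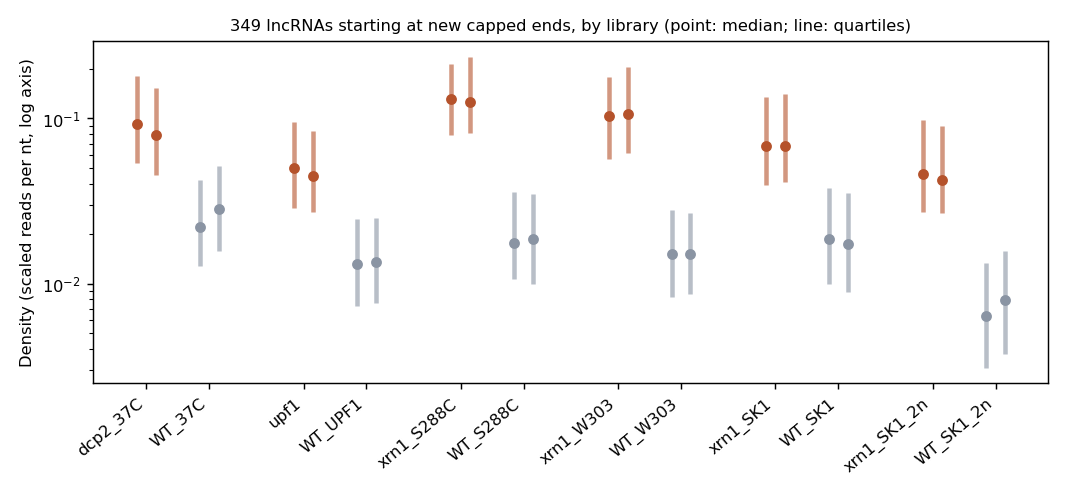
Density (scaled reads per nt, log axis, y) of the 349 linked lncRNAs in each rRNA-depleted library (x axis, each mutant group left of its wild type). Points are medians and lines run between quartiles. In each pair both mutant medians stand above both wild-type medians, from 0.0921 and 0.0797 against 0.0221 and 0.0284 in dcp2_37C and WT_37C to 0.0460 and 0.0425 against 0.00637 and 0.00792 in xrn1_SK1_2n and WT_SK1_2n.

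The 8 linked lncRNAs with the highest mean density in dcp2_37C cells were XUT1386, XUT0282, XUT1564, SUT674, SUT141, SUT796, SUT721 and XUT0105. XUT1386 (chr10:472091-472453, minus strand), with no gene opposite, had 1.78 and 1.50 in dcp2_37C cells, against 0.498 and 0.503 in WT_37C cells. XUT0282 (chr5:284478-287734, plus strand) runs opposite the whole of ICL1, which encodes isocitrate lyase of the glyoxylate cycle, and had 1.16 and 0.930 in dcp2_37C, against 0.110 and 0.150 in WT_37C. In both, the 2 groups did not overlap. ICL1 itself had 0.0422 and 0.0349 in dcp2_37C, against 0.0377 and 0.0540 in WT_37C, values that overlap.

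SUT674 (chr11:341131-342115, minus strand) has 81.6% of its length opposite SFK1, which encodes a plasma membrane protein. It had 0.798 and 0.654 in dcp2_37C, against 0.121 and 0.156 in WT_37C. SFK1 had 0.388 and 0.351 in dcp2_37C, against 0.180 and 0.250 in WT_37C, so both strands of that locus were higher in dcp2_37C. XUT0105 (chr3:157793-158440, plus strand) had 0.594 and 0.507 in dcp2_37C, against 0.0852 and 0.0964 in WT_37C. The smallest differences of the 8 were those of XUT1564, with 0.895 and 0.763 against 0.453 and 0.476, and of SUT721, with 0.555 and 0.553 against 0.256 and 0.289, again with dcp2_37C first in each. They too did not overlap. SUT141 and SUT796 lay between, with log2 differences of 1.79 and 1.81.

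In cells without Upf1, measured in libraries that the choice of ends did not use, 294 of 349 linked lncRNAs rose and none fell (limma, adjusted p under 0.05). Of all features 54.3% rose and 1.26% fell, and of all lncRNAs 71.5% rose and 0.365% fell. At an unadjusted p under 0.05, 300 rose and 0 fell, and voom on the reads gave 299 and 0. The median log2 change was 1.39, against 1.08 for all lncRNAs and 0.32 for genes. Scaled to equal gene medians, 242 rose and 13 fell, against 33.8% and 37.3% of all features and 55.5% and 8.64% of all lncRNAs. The median density was 0.0501 and 0.0449 in upf1, against 0.0132 and 0.0136 in WT_UPF1.

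By class, 208 of 241 linked XUTs rose in upf1 (86.3%, against 82.2% of all XUTs), as did 68 of 75 SUTs (90.7%, against 84.6%) and 18 of 33 CUTs (54.5%, against 38.6%). The differences between these classes were not tested. With a gene opposite, 174 of 202 rose (86.1%), and with none, 120 of 147 (81.6%). The lncRNAs that started at shared ends only rose in 84.0% of cases, close to the 84.2% of linked lncRNAs, and those that started at no dcp2-7 position in 65.9%. The median log2 change was 1.42 for lncRNAs at shared ends only, against 1.39 for linked lncRNAs.

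Among linked lncRNAs at or above the median density, the largest rises in upf1 were those of XUT0788, SUT777, SUT692, XUT1479, SUT557 and SUT703, 5 of which lie opposite a gene. That density is the mean over all 24 rRNA-depleted libraries, the mutants included. A lncRNA can thus pass the limit through its level in the mutants. XUT0788 (chr15:3524-3979, plus strand), close to the left end of its chromosome, had 0.119 and 0.0893 in upf1, against 0.00676 and 0.00139 in WT_UPF1. Those values rest on 171 and 185 reads in upf1 and on 17 and 5 reads in WT_UPF1. Its log2 change was 3.52 ± 0.22 (SE; limma, adjusted p = 4.3e-12). It was listed at 0 in all 8 SK1 libraries.

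SUT777 (chr15:447260-448364, minus strand) has 83.8% of its length opposite CYT1, which encodes cytochrome c1. It had 0.421 and 0.366 in upf1, against 0.0299 and 0.0319 in WT_UPF1, a log2 change of 3.44 ± 0.18. SUT692 (chr12:290060-291692, minus strand) lies opposite GAL2, the galactose permease gene, and had 0.182 and 0.168 in upf1, against 0.0123 and 0.0139 in WT_UPF1. XUT1479 covers nearly the same bases and shares its reads. The largest rises were chosen among lncRNAs with both upf1 libraries above both WT_UPF1 libraries, so that these groups do not overlap by choice.

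SUT557 (chr7:713475-714971, minus strand) lies opposite CLD1, the gene of a cardiolipin-specific phospholipase. It had 0.396 and 0.369 in upf1, against 0.0380 and 0.0372 in WT_UPF1. In dcp2_37C it had 0.0166 and 0.0138, against 0.0350 and 0.0464 in WT_37C. A capped end was thus listed at SUT557 in dcp2-7 and not in wild type, while its RNA was higher in upf1 and lower in dcp2_37C than in the wild type of each. SUT703, opposite BOP2, had 0.248 and 0.246 in upf1, against 0.0231 and 0.0240 in WT_UPF1.

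In cells without Xrn1, 348 of 349 linked lncRNAs rose and none fell in xrn1_S288C (limma, adjusted p under 0.05), where 91.6% of all features and 93.3% of all lncRNAs rose and 0.927% and 1.04% fell. At an unadjusted p under 0.05 the counts were 348 and 0, and with voom 349 and 0. The exception, XUT1001, is named for that reason: it had 0.00563 and 0.00108 in xrn1_S288C, against 0 and 0.000702 in WT_S288C. XUTs are defined by their rise without Xrn1, so that the rise of the 241 linked XUTs is no independent evidence. The 75 linked SUTs and the 33 linked CUTs, which are not so defined, all rose in xrn1_S288C, against 96.7% of all SUTs and 85.8% of all CUTs. Some of them share their reads with an XUT, as SUT692 does with XUT1479 and CUT705 with XUT1424. Their rise is thus not fully independent of that definition either. Of the lncRNAs that started at shared ends only, 98.9% rose in xrn1_S288C, with a median log2 change of 2.35, against 2.47 for linked lncRNAs.

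The median log2 change of linked lncRNAs was 2.47 in xrn1_S288C, 2.43 in xrn1_W303, 1.66 in xrn1_SK1 and 2.03 in xrn1_SK1_2n, against 1.58, 1.97, 1.55 and 3.14 for genes in the same 4 comparisons. Relative to genes, linked lncRNAs were thus 0.88, 0.46 and 0.12 higher in the 3 haploid backgrounds and 1.12 lower in the diploid. In WT_SK1_2n their median densities, 0.00637 and 0.00792, were close to 0.00577, the pseudocount added before taking log2. Their change in the diploid is therefore understated, and with voom its median was 2.84. How far the pseudocount set the difference from genes was not tested. In xrn1_W303, 335 rose and 3 fell, where 91.3% and 1.1% of all features and 87.7% and 1.6% of all lncRNAs did. In xrn1_SK1, 293 rose and 8 fell, where 82.5% and 3.32% of all features and 71.8% and 6.26% of all lncRNAs did, and without xrn1_SK1 replicate 1 the number that fell was 4. In xrn1_SK1_2n, 314 rose and 3 fell, where 90.5% and 1.3% of all features and 82.8% and 2.42% of all lncRNAs did, and the number that fell was 1 without WT_SK1_2n replicate 2 and 1 without xrn1_SK1_2n replicate 1.

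The split of these calls depended on the scale. With libraries scaled to equal gene medians, 252 rose and 14 fell in xrn1_S288C (35.2% and 33.2% of all features), 201 and 49 in xrn1_W303 (32.5% and 37.6%), 139 and 87 in xrn1_SK1 (30.3% and 42.2%), and 59 and 188 in xrn1_SK1_2n (26% and 51.8%). The majority of calls therefore turned to falls in the diploid, where genes rose most on the snoRNA scale, and stayed rises in the other 3. Of all lncRNAs, 48.9% rose and 12.8% fell in xrn1_S288C with that scaling, and 39.2% and 24.6% in xrn1_W303. The shares were 30.6% and 37% in xrn1_SK1, and 19.6% and 55.4% in xrn1_SK1_2n. For all lncRNAs, falls thus outnumbered rises in the diploid too, and also in xrn1_SK1. Linked lncRNAs stood below genes in xrn1_SK1_2n only, in which their deposited wild-type densities were close to the pseudocount. As deposited, the median of all lncRNAs minus that of genes was -1.27 there, against -1.12 for linked lncRNAs. In xrn1_SK1 it was -0.28, against 0.12 for linked lncRNAs.

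**Figure D4:**
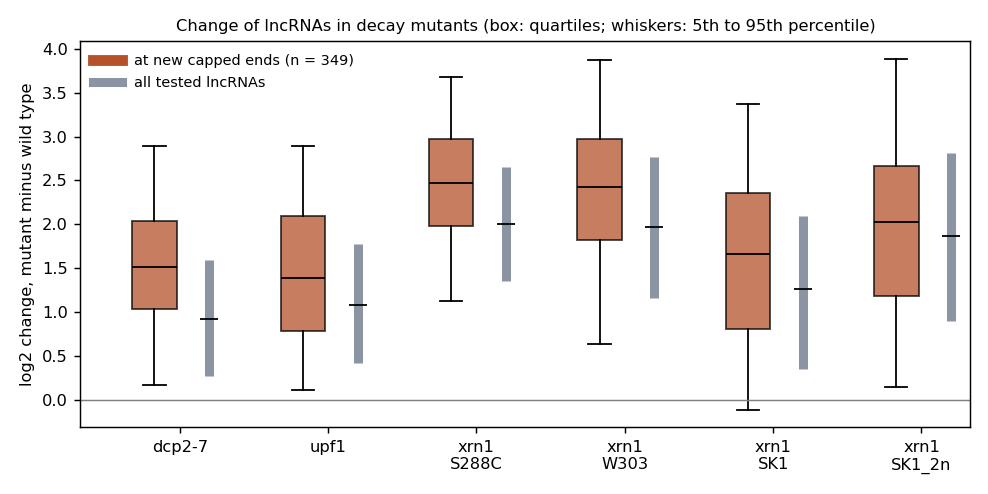
Log2 change, mutant minus wild type (y axis), of the 349 linked lncRNAs (boxes with quartiles, whiskers from the 5th to the 95th percentile) and of all tested lncRNAs (grey bars with quartiles and median) in dcp2-7, upf1 and xrn1 cells (x axis), as deposited on the snoRNA scale. The medians of linked lncRNAs, 1.51 in dcp2-7, 1.39 in upf1 and 2.47, 2.43, 1.66 and 2.03 in the 4 xrn1 backgrounds, stand above those of all lncRNAs in each. On the scale of equal gene medians that of xrn1_SK1_2n turns to -0.48. The lncRNAs at shared ends only, which are not drawn, had medians of 1.42 in upf1 and 2.35 in xrn1_S288C.

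By the same limit on density, the largest rises in xrn1_S288C were those of SUT229, XUT0790, SUT674, SUT666, SUT019 and XUT1417. SUT229 (chr11:151135-152919, plus strand) had 1.71 and 1.75 in xrn1_S288C, against 0.0320 and 0.0269 in WT_S288C, a log2 change of 5.63 ± 0.15 (limma, adjusted p = 5.7e-18). SUT674 had 4.39 and 4.34 in xrn1_S288C, against 0.156 and 0.159 in WT_S288C. SUT666, opposite part of CUE2, which encodes an endonuclease of no-go decay, had 1.13 and 1.14 in xrn1_S288C, against 0.0521 and 0.0483 in WT_S288C. XUT1417 (chr11:21137-24925, minus strand) lies opposite JEN1, the lactate permease gene, and had 0.693 and 0.649 in xrn1_S288C, against 0.0359 and 0.0352 in WT_S288C. These 4 lie on chromosome 11, where genes had a median log2 change of 2.46 in xrn1_S288C, against 1.54 on the other chromosomes. The 25 linked lncRNAs on chromosome 11 had a median of 3.33, against 2.43 for the others. The part of that chromosome-wide offset in their values was not tested.

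SUT019 (chr2:532518-533198, plus strand) rose in all 4 backgrounds, with log2 changes of 4.05, 4.52, 4.27 and 4.50 in xrn1_S288C, xrn1_W303, xrn1_SK1 and xrn1_SK1_2n, each ± 0.16. It had 0.494 and 0.503 in xrn1_S288C, against 0.0224 and 0.0270 in WT_S288C, and 0.239 and 0.259 in xrn1_SK1_2n, against 0.00553 and 0.00546 in WT_SK1_2n. Those WT_SK1_2n values lie below the pseudocount of 0.00577, so that the log2 change of SUT019 in the diploid is understated. How alike its 4 changes are was not tested. XUT0066 overlaps it and shares its reads. XUT0282 rose with log2 changes of 3.77, 4.21, 3.96 and 4.85 in the same order, each ± 0.15. It had 1.37 and 1.34 in xrn1_S288C, against 0.0957 and 0.0926 in WT_S288C. XUT0790 (chr15:18276-18704, plus strand) differed between backgrounds: it had 0.230 and 0.257 in xrn1_S288C, against 0.00314 and 0.00151 in WT_S288C, but 0.0134 and 0.0155 in xrn1_SK1, against 0.0109 and 0.00623 in WT_SK1. The WT_S288C values rest on 3 reads in each library, so this fold is imprecise, and the difference between backgrounds was not tested.

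All 5 comparisons together, upf1 and the 4 of xrn1, gave a rise of 261 of 349 linked lncRNAs (74.8%), against 58.9% of all lncRNAs and 47.7% of all features. That count is on the snoRNA scale; with equal gene medians 59 rose in xrn1_SK1_2n, so that no more than 59 could rise in all 5. In the 4 xrn1 comparisons alone, 82.5% rose in each, against 66.8% of lncRNAs and 77.9% of features. XUTs, defined by a rise without Xrn1, were 241 of the 349 linked lncRNAs and 1798 of all 3570 lncRNAs. These joint shares are therefore not independent of that definition, and they were not split by class. Only a few linked lncRNAs fell. In xrn1_W303 these were CUT705 and XUT1424, which overlap opposite APE2, the gene of an aminopeptidase, and CUT234. CUT705 had 0.0283 and 0.0260 in xrn1_W303, against 0.0467 and 0.0566 in WT_W303, but 0.681 and 0.654 in xrn1_S288C, against 0.0546 and 0.0559 in WT_S288C. CUT234 had 0.521 and 0.595 in xrn1_SK1_2n, against 1.35 and 1.07 in WT_SK1_2n. In xrn1_SK1 the largest falls were those of XUT0656, which lies wholly opposite NMT1, the N-myristoyl transferase gene, and of XUT0664 and SUT279, which overlap each other. XUT0656 had 0.0133 and 0.0219 in xrn1_SK1, against 0.0336 and 0.0311 in WT_SK1. Its log2 change of -0.73 was -0.46 and did not pass without xrn1_SK1 replicate 1, and that of CUT234 in xrn1_W303, -0.52, was -0.34 and did not pass without xrn1_W303 replicate 2.

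Terminator spares capped RNA and degrades RNA with a 5' monophosphate, and its effect was measured apart from the CAGE lists. Treated and untreated libraries were scaled to the same snoRNA sum, so that each response is relative to that sum. What a response says about the 5' ends of the linked lncRNAs was not tested. In xrn1_S288C, 314 of 349 were lower after treatment and none was higher (limma, adjusted p under 0.05), against 83.2% lower and 2.14% higher among all features and 79.1% and 1.96% among all lncRNAs. At an unadjusted p under 0.05, 315 were lower and 0 higher, and voom gave 312 and 0. The median log2 response was -1.10, the same as for genes, -1.10. In WT_S288C the median response was 0.18, and 54 were higher and 3 lower (13.7% and 11.6% of all features, 18.4% and 4.58% of all lncRNAs). The 3, named because they are few, were XUT0018, XUT1352 and XUT1639. The difference between both responses passed the threshold as lower in xrn1_S288C for 326 and as higher for none, against 81.6% lower and 0.187% higher among all features and 78% and 0.0569% among all lncRNAs, with 328 and 0 at an unadjusted p under 0.05 and 309 and 0 with voom. Its median was -1.33, against -1.03 for genes. With libraries scaled to equal gene medians, 74 were higher and 86 lower in treated xrn1_S288C RNA. Of all features 36% and 23.5% were, and of all lncRNAs 26.5% and 18.2%. In treated WT_S288C RNA, 126 were higher and 12 lower (33% and 18.7% of all features, 35.7% and 6.07% of all lncRNAs). The difference between both responses was lower for 86 and higher for 2 (17.1% and 22.6% of all features, 19.6% and 5.76% of all lncRNAs). On that scale the median response of linked lncRNAs in xrn1_S288C was -0.06.

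In dcp2_37C, treatment lowered only XUT0018, and 110 of 349 linked lncRNAs were higher (limma, adjusted p under 0.05, where 22.1% of all features and 26.1% of all lncRNAs were higher and 3.9% and 2.42% lower). That count was 17 without dcp2_37C replicate 2, 37 without dcp2_37C_Ter replicate 1 and 49 without dcp2_37C_Ter replicate 2, and XUT0018 passed in none of the fits that left out dcp2_37C replicate 1, dcp2_37C_Ter replicate 1 or dcp2_37C_Ter replicate 2. In WT_37C, 58 were higher (17.5% of all features and 17.9% of all lncRNAs), with 17 without WT_37C replicate 1, 101 without WT_37C_Ter replicate 1 and 15 without WT_37C_Ter replicate 2. None was lower in WT_37C (2.69% of all features and 1.51% of all lncRNAs were), nor at an unadjusted p under 0.05 or with voom, while 1 was lower without WT_37C_Ter replicate 1 and 1 without WT_37C_Ter replicate 2. The count in WT_S288C was 25 without WT_S288C replicate 1, 27 without WT_S288C replicate 2 and 35 without WT_S288C_Ter replicate 2, where 7 were lower. The number that passed in these 3 comparisons thus changed when 1 library was left out, which also leaves 1 library in that group. The cause of these changes was not tested. The median responses were 0.39 in dcp2_37C and 0.29 in WT_37C, against 0.16 and 0.16 for genes. Higher and lower are relative to the snoRNA sum here, not amounts gained by treatment. With libraries scaled to equal gene medians, 104 were higher and 2 lower in treated dcp2_37C RNA (26.5% and 14.6% of all features, 23.8% and 4.73% of all lncRNAs). In treated WT_37C RNA, 55 were higher and 4 lower on that scale (20.5% and 15.1% of all features, 17.3% and 4.98% of all lncRNAs).

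The difference between the responses of dcp2_37C and WT_37C passed the threshold for 0 linked lncRNAs (limma, adjusted p under 0.05), with 7 higher and 1 lower at an unadjusted p under 0.05 and 0 and 0 with voom. Of all features, 0.052% were called higher and 0.0312% lower, and of all lncRNAs 0.0284% and 0.0569%. Without WT_37C_Ter replicate 2, 1 linked lncRNA passed. The median difference was 0.09. The largest differences were those of SUT496, 0.59 ± 0.30, CUT027, 0.51 ± 0.25, and XUT0063, 0.51 ± 0.27. The smallest were those of XUT1572, -0.47 ± 0.28, XUT0790, -0.39 ± 0.29, and CUT636, -0.38 ± 0.53. None passed the threshold. Leaving out 1 library moved each of them by over 1.5 times, with 0.35 to 0.83 for SUT496, 0.33 to 0.70 for CUT027, 0.32 to 0.70 for XUT0063, -0.72 to -0.21 for XUT1572, -0.57 to -0.21 for XUT0790 and -0.72 to -0.05 for CUT636. XUT0063, opposite SHE3, which encodes an adaptor for mRNA transport to the bud, had 0.543 and 0.491 in dcp2_37C_Ter and 0.335 and 0.293 in dcp2_37C, against 0.0262 and 0.0348 in WT_37C_Ter and 0.0212 and 0.0302 in WT_37C.

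**Figure D5:**
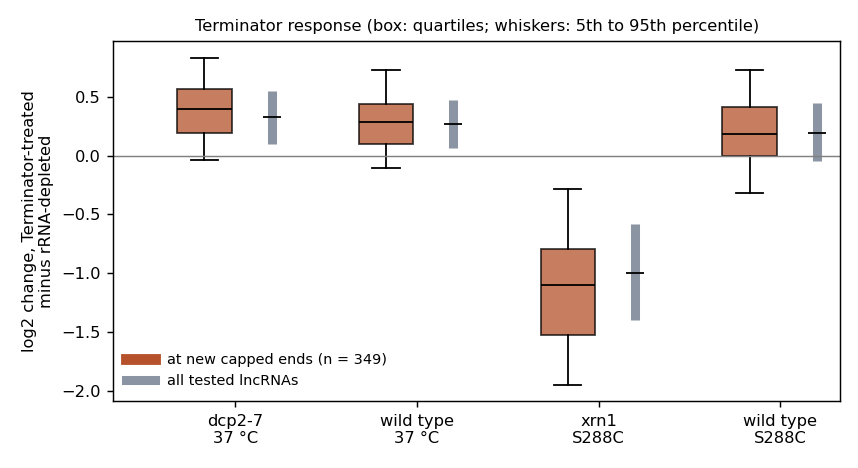
Log2 response to Terminator, treated minus rRNA-depleted RNA (y axis), of the 349 linked lncRNAs (boxes with quartiles, whiskers from the 5th to the 95th percentile) and of all tested lncRNAs (grey bars with quartiles and median) in dcp2-7 and wild-type cells at 37 °C and in xrn1 and wild-type cells of S288C (x axis), as deposited. The median of linked lncRNAs was -1.10 in xrn1_S288C and 0.18 to 0.39 in the other 3 groups, and -0.06 in xrn1_S288C with libraries scaled to equal gene medians.

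Of the lncRNAs with the highest levels, XUT1386 and SUT674 were lowered by treatment in xrn1_S288C and not in dcp2_37C, and SUT721 was not lowered in either. XUT1386 had 0.623 and 0.707 in xrn1_S288C_Ter, against 2.43 and 2.51 in xrn1_S288C, and 1.73 and 1.62 in dcp2_37C_Ter, against 1.78 and 1.50 in dcp2_37C. Its response in xrn1_S288C minus that in WT_S288C was -2.05 ± 0.22 (limma, adjusted p = 2e-08). SUT674 had 0.929 and 1.01 in xrn1_S288C_Ter, against 4.39 and 4.34 in xrn1_S288C, while in dcp2_37C_Ter it had 0.780 and 0.698, against 0.798 and 0.654 in dcp2_37C. For both, the treated and untreated libraries were apart in xrn1_S288C and overlapped in dcp2_37C. SUT721 had 0.721 and 0.746 in xrn1_S288C_Ter, against 0.820 and 0.765 in xrn1_S288C, and its response there did not pass the threshold. In dcp2_37C_Ter it had 1.00 and 1.16, against 0.555 and 0.553 in dcp2_37C, so both treated libraries stood above both untreated ones.

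The genes of decapping, 5' decay and nonsense-mediated decay form a list of 24, chosen with earlier results of these data known. Among DCP1, DCP2, the EDC, LSM and UPF genes and the others of that list, 10 rose and 1 fell in upf1, and 23 rose and 1 fell in xrn1_S288C (limma, adjusted p under 0.05), with medians of 0.13 and 1.37, against 0.32 and 1.58 for all genes. Of 5760 genes tested, 2710 rose and 30 fell in upf1, and 5461 rose and 15 fell in xrn1_S288C. In dcp2_37C, 20 were higher and none lower, with a median of 0.86, against 0.71 for all genes, of which 4621 were higher and 89 lower. DCP2 had 0.553 and 0.506 in dcp2_37C, against 0.289 and 0.373 in WT_37C. NAM7, the gene of Upf1, was the 1 that fell in upf1, with 0.000869 and 0.00151, against 0.589 and 0.581 in WT_UPF1, and XRN1 was the 1 that fell in xrn1_S288C.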

How the data were processed

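Capped ends came from 4 CAGE samples and RNA levels from 32 stranded RNA-seq libraries. Per the submitters' processing notes, TopHat, Bowtie and cutadapt were used; no source used here gives their versions or the genome build. The authors deposited each genotype's CAGE list as positions without heights. They deposited RNA signal as densities, which were tested on the values: 100% were whole multiples of 1 read per nt times a factor per library (tolerance 0.01), and the factors make the snoRNA sum equal. Because these are not counts, no count model was used apart from voom on reads derived from them, as an alternative.

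R64 was used for sequences because 5757 of 5789 genes matched by name had the deposited coordinates. log2(density + pseudocount) was fitted in R 4.3.3 with limma 3.58.1, with 0.00577 for the 24 rRNA-depleted libraries in 12 groups (12 residual degrees of freedom, 9712 of 9765 features) and 0.00841 for the 16 libraries of the Terminator fit (8 residual degrees of freedom, 9615 features). These are the 5th percentiles of the values above 0, and a feature had to reach them in 2 libraries. Log2 changes are on that scale, which understates changes of low features. P-values were adjusted by Benjamini-Hochberg over all features, with a threshold of 0.05. The fit was also run on simulated reads, for upf1 and for Terminator in dcp2_37C only. The simulation gave all features the same dispersion, so that it does not test the fit on the real spread of replicates. Python 3.11.15, pandas 2.3.3, numpy 2.4.6, statsmodels 0.14.6 and matplotlib 3.10.9 made the counts, Wilson intervals and figures. Intervals cover counting error only.

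Named lncRNAs were the 8 linked ones with the highest mean in dcp2_37C. At or above the median density, with both libraries beyond both of the other group, the 6 largest rises in upf1 and in xrn1_S288C, the 4 largest mean rises over the xrn1 comparisons and up to 3 falls in each were added, with the 3 largest and 3 smallest differences in Terminator response and the 6 clusters with the most positions. The density of that limit is the mean over the 24 rRNA-depleted libraries, the mutants included. Members and lists were chosen with earlier results of these data known. Alternatives were another pseudocount, filter, scaling, model and annotation distance, voom, a replicate block and each library left out.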

Additional observations from a re-analysis of the deposited data

Results flagged for a closer look

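Terminator responses differed between genotypes of S288C by a test of the difference itself (limma, adjusted p under 0.05): the response was lower in xrn1_S288C than in WT_S288C for 326 of the 349 linked lncRNAs, where 81.6% of all features also were. With libraries scaled to equal gene medians the number was 86. The median of the same difference was -1.03 for genes, which XUT1564 and SUT721 do not exceed in size. For the 8 linked lncRNAs with the highest level in dcp2_37C, the log2 response in xrn1_S288C minus that in WT_S288C was -2.05 for XUT1386, -1.19 for XUT0282, -0.59 for XUT1564, -1.76 for SUT674, -1.72 for SUT141, -1.57 for SUT796, -1.02 for SUT721 and -2.12 for XUT0105.

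Some linked lncRNAs moved in opposite directions without Xrn1 in different backgrounds. These differences between backgrounds were not tested. In xrn1_S288C, xrn1_W303, xrn1_SK1 and xrn1_SK1_2n, each minus its wild type, CUT705 had log2 changes of 3.46, -0.80, -0.48 and 0.15. XUT1424, which overlaps CUT705, had 3.45, -0.79, -0.47 and 0.16. CUT234 had log2 changes of 0.85, -0.52, -0.54 and -1.10, and XUT0656 had 1.28, 0.22, -0.73 and -0.19. XUT0664 had log2 changes of 1.05, 0.41, -0.71 and -0.47, and SUT279, which overlaps it, had 1.05, 0.43, -0.68 and -0.47. Leaving out 1 library ended some of these calls: that of CUT234 in xrn1_W303 without xrn1_W303 replicate 2 (-0.34), that of XUT0656 in xrn1_SK1 without xrn1_SK1 replicate 1 (-0.46), and in xrn1_SK1_2n those of XUT0664 (-0.38 and -0.39) and SUT279 (-0.41 and -0.39) without WT_SK1_2n replicate 2 or xrn1_SK1_2n replicate 1, and that of SUT279 (-0.50) without WT_SK1_2n replicate 1. CUT705, XUT1424 and CUT234 lie on chromosome 11, where genes also had a higher median change in xrn1_S288C, 2.46, against 1.54 on the other chromosomes.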

How the results depend on the processing

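Among counts and shares recomputed under an alternative, 253 stayed within 1.5 times (counts) or within the 95% interval (shares) and 25 moved. With libraries scaled to equal gene medians, the number of linked lncRNAs that rose was 201 in xrn1_W303, 139 in xrn1_SK1 and 59 in xrn1_SK1_2n, the number lower after Terminator in xrn1_S288C was 86, the number higher in WT_S288C was 126, and the response difference of xrn1_S288C and WT_S288C was lower for 86. For dcp2_37C_Ter minus dcp2_37C the number higher was 169 with those groups fitted alone and 172 with the 25th percentile as pseudocount. For WT_37C_Ter minus WT_37C it was 14 with those groups fitted alone. Among the 175 with no overlapping lncRNA on their strand, the shares were 25.1% higher in dcp2_37C_Ter, 11.4% higher in WT_S288C_Ter and 88.0% lower for the xrn1_S288C response difference, against 31.5%, 15.5% and 93.4% of all 349, each outside the 95% interval of the larger set. Reading the minus strand 1 nt downstream, chosen after seeing the data, gave 97.1% for the start pattern and 71.5% for A at -8. The cause of these moves was not tested.

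Leaving out each library in turn gave 346 to 348 rises in xrn1_S288C, 332 to 334 in xrn1_W303, 284 to 293 in xrn1_SK1, 301 to 308 in xrn1_SK1_2n and 306 to 315 in dcp2_37C. It gave 17 to 87 higher in dcp2_37C_Ter, 15 to 101 in WT_37C_Ter and 25 to 49 in WT_S288C_Ter, 293 to 297 lower in xrn1_S288C_Ter, and 0 to 1 and 314 to 324 for the response differences of dcp2_37C and xrn1_S288C.

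With the replicate number as a block, 90 were higher in WT_37C_Ter, and no other count moved by over 1.5 times. The deviations of libraries with the same number correlated by -0.163 to 0.268, the highest for WT_37C_Ter and WT_37C, and the labels do not say that a number marks a shared culture or day, so the numbers were not taken as pairs. With crossed numbers, chosen after seeing the data, WT_S288C_Ter gave 57, against 59 with the block and 54 without.

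Signs turned under equal gene medians for SUT721 in xrn1_S288C_Ter (1.12), upf1 (-0.57) and xrn1_S288C (-0.76), for SUT796 and XUT0282 in xrn1_S288C_Ter (0.0748 and 0.15), and for XUT1564 in xrn1_S288C_Ter (0.90), upf1 (-0.25) and xrn1_S288C (-0.33). SUT721 in upf1 was -0.06 without WT_UPF1 replicate 1 and -0.12 without upf1 replicate 1, and 0.22 at most with another library left out. With 25, 100 or 200 nt to the closest wild-type position, 1220, 1124 or 1107 ends were new. Low read numbers, a median of 21 and 11 reads per linked lncRNA in WT_W303, limit single values there.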
